A study of Homo sapiens with 7 samples.

Results

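The snoRNA host genes are RNA genes whose introns give rise to small nucleolar RNAs (snoRNAs). They were taken here as the genes of the SNHG series, together with GAS5, ZFAS1, EPB41L4A-AS1 and DANCR, and 31 such genes were found among the 27981 genes listed in the count tables. All 31 were listed in each of the 3 single-cell RNA libraries. The libraries came from cardiac cells differentiated from the established human embryonic stem cell line H1, and shared this line and the droplet method. One was made at day 15 from cells treated with CHIR, the usual short name of a GSK3 inhibitor used to switch on canonical Wnt signalling, one at day 15 from cells given the vehicle DMSO, and one at day 11, for which the labels give no treatment. The day of this last library is taken from its title alone, since its extraction protocol names day 15. Each group had 1 library from 1 cell line, so no difference has a replicate check, and treatment, culture and library cannot be told apart. All intervals below are 95% intervals for counting error only.

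A snoRNA guides chemical modification of other RNAs, mostly ribosomal RNA. Box C/D snoRNAs guide 2′-O-methylation and box H/ACA snoRNAs guide pseudouridylation. In vertebrates most of them are cut out of introns, so a host gene is transcribed and spliced, the intron yields the snoRNA and the joined exons remain as a host RNA. Many host RNAs carry no long reading frame, are bound by ribosomes and are degraded by nonsense-mediated decay, and many begin with the pyrimidine tract (TOP) that ribosomal protein mRNAs also carry. The counts here are of polyadenylated host RNA. The snoRNAs themselves have no poly(A) tail and were not measured.

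The start sites below are shown with a pyrimidine run near the start, a looser class than TOP that is called a tract here. They are given for the 5 members with the largest CHIR over DMSO ratio in cardiomyocyte-like cells, for ZFAS1 and for SNHG18, which had the lowest ratio. Each is a window of 100 bases from RefSeq (GRCh38.p14) on the strand of the gene, read 5′ to 3′, in which base 51 is the first transcribed base of the RefSeq promoter table. That base is also the start of the gene bounds in 25 of 27 members, but lies 464 bases inside them in ZFAS1 and 1110 bases inside them in SNHG12. Capitals mark a run of at least 5 C or T that opens with C within 10 bases of base 51, and a window with no capitals has none. The windows lie at chr1:173868996-173869095 on the minus strand for GAS5, chr16:2155309-2155408 on the minus strand for SNHG19 and chr1:28505893-28505992 on the plus strand for SNHG3. They lie at chr6:31834866-31834965 on the plus strand for SNHG32, chr6:85678684-85678783 on the minus strand for SNHG5, chr20:49278592-49278691 on the plus strand for ZFAS1 and chr5:9546150-9546249 on the plus strand for SNHG18.
GAS5: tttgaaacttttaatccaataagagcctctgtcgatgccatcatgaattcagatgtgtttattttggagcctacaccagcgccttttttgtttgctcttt
SNHG19: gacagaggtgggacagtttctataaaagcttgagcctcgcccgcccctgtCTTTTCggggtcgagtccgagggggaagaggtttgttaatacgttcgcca
SNHG3: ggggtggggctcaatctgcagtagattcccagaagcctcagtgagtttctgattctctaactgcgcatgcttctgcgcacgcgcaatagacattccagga
SNHG32: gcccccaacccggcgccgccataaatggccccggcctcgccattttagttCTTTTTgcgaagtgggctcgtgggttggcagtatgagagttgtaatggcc
SNHG5: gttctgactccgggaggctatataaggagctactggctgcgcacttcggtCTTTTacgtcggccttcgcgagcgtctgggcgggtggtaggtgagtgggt
ZFAS1: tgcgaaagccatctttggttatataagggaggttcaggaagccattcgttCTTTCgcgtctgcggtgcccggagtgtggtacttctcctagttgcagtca
SNHG18: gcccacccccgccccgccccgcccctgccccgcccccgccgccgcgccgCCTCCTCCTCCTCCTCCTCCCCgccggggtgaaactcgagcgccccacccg

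In SNHG19, SNHG32, SNHG5 and ZFAS1 the tract opens exactly at that base. Of the 27 members in the promoter table, 16 had such a tract (59.3%), against 87.1% of 62 ribosomal protein genes and 31.3% of all 27305 promoters of the table. These are not counts of TOP starts. In SNHG14 the run of 6 bases opens 8 bases before the start and ends before it. In SNHG11 and SNHG26 it opens 9 and 10 bases after the start. The table gives 1 start per gene, and GAS5 and SNHG3 had no tract at theirs. Other start sites of these genes were not examined, so a tract at another start would be missed. Other motifs were searched in the 300 bases of each entry, 250 before the start and 50 after it. The MYC site CACGTG, which reads alike on both strands, was in 7.41% of the member entries (SNHG7 and SNHG30) and 7.43% of all. CTTTGAT, a TCF/LEF site read on both strands, was in 0 member entries and in 2.64% of all. TATAAA, read on the strand of the gene, was in 7.41% of the member entries (SNHG7 and SNHG19) and 7.71% of all.

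Cardiomyocyte-like cells, named from 10 fixed markers, numbered 1304 with CHIR, 1651 with DMSO and 3432 at day 11. All 10 markers were at or above 20 CPM, a scale on which the UMIs of every class of cells sum to the same total, in each library. Their summed level was 23352 CPM with CHIR, 43654 CPM with DMSO and 40647 CPM at day 11. Mesenchymal markers, 8 in number, summed to 309, 242 and 388 CPM in the same order, the 6 endothelial markers to at most 11.2 CPM, the 5 smooth muscle markers to 1078, 760 and 361 CPM and the 6 endoderm markers to 20.4, 102 and 144 CPM. The endoderm markers AFP and FGB were at 0 in the CHIR cells of the class. The part of other cell types in the results below was not tested. Different clusters made up the class, cluster 4 and the cycling cluster 2 with CHIR and cluster 10 and the cycling cluster 11 with DMSO. Mesenchymal-like cells numbered 3739 with CHIR, 1565 with DMSO and 19 at day 11. A CHIR cluster of 434 cells with both cardiomyocyte and mesenchymal genes and a median of 23624 UMIs was kept apart as mixed, and GAS5 stood at 1203 CPM in it. The libraries held 81076689 UMIs with CHIR, 65675862 with DMSO and 75906387 at day 11, and pairs of libraries shared 3 to 6 cell barcodes. Ribosomal protein genes took 30.02% of the UMIs of cardiomyocyte-like cells in the CHIR library, against 22.0% with DMSO and 12.2% at day 11.

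Host RNAs were on balance higher with CHIR than with DMSO in cardiomyocyte-like cells, and GAS5 had the highest ratio. Of 28 members with at least 20 UMIs over both libraries, 14 were at least 1.5-fold higher (19.4% of all 15485 genes measured), 3 were at least 1.5-fold lower (25.8% of all genes) and 11 lay between. The median log2 ratio was 0.57 for the members and −0.03 for all genes. The members together took 8962 CPM with CHIR and 5331 CPM with DMSO. The members were chosen by name, but with the CHIR over DMSO ratios of GAS5, SNHG19 and SNHG3 in these libraries already known. They therefore count as selected on this contrast, and its values are a description with no test.

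GAS5 (chr1:173863901-173869045, GRCh38.p14) hosts 10 box C/D snoRNAs and SNORA103 and is known to accumulate in growth-arrested cells. It stood at 1547 CPM with CHIR, 169 CPM with DMSO and 98.0 CPM at day 11. Its CHIR over DMSO ratio was 9.14 (interval 8.82 to 9.46). The gene ranked 79 among all 15485 by ratio. SNHG19 (chr16:2154782-2155358), the host of SNORD60, stood at 49.9 CPM with CHIR, 5.97 CPM with DMSO and 2.82 CPM at day 11. Its ratio was 8.37 (6.94 to 10.2), from 937 and 125 UMIs. SNHG3 (chr1:28505943-28510892) hosts SNORA73A and SNORA73B, the U17 snoRNAs, which act in cleavage of the ribosomal RNA precursor. It had 125 CPM with CHIR, 20.6 CPM with DMSO and 14.6 CPM at day 11, a ratio of 6.08 (5.49 to 6.75). In each of these 3 genes the CHIR library was set apart, while DMSO and day 11 lay nearer to each other.

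Box C/D hosts made up much of the next group. SNHG32, host of SNORD48 and SNORD52, had 168 CPM with CHIR, 36.6 CPM with DMSO and 57.7 CPM at day 11. SNHG5, host of the SNORD50 pair, had 277, 78.2 and 53.2 CPM in the same libraries. SNHG32 was thus 4.60-fold (4.25 to 4.99) and SNHG5 3.54-fold (3.35 to 3.75) higher with CHIR than with DMSO. ZFAS1, host of the SNORD12 group, had 986 CPM with CHIR, 332 CPM with DMSO and 249 CPM at day 11, a ratio of 2.97 (2.89 to 3.06). SNHG16, host of SNORD1A to SNORD1C, had 456, 186 and 142 CPM, a ratio of 2.46 (2.37 to 2.55). A pair of box H/ACA hosts differed by a like amount. EPB41L4A-AS1, host of SNORA13, had 276 CPM with CHIR, 107 CPM with DMSO and 95.3 CPM at day 11, a ratio of 2.59 (2.46 to 2.72). SNHG8, host of SNORA24, had 397, 181 and 80.1 CPM, a ratio of 2.20 (2.11 to 2.29).

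Nearer to the 1.5-fold line stood 5 more members. SNHG1, which hosts 8 box C/D snoRNAs including SNORD25 to SNORD31, had 94.2 CPM with CHIR, 55.0 CPM with DMSO and 58.6 CPM at day 11, a ratio of 1.71 (1.59 to 1.85). SNHG6, host of SNORD87, had 471, 294 and 103 CPM, a ratio of 1.60 (1.55 to 1.65). SNHG4 was 1.73-fold higher (1.41 to 2.12), SNHG17 1.66-fold higher (1.48 to 1.86) and SNHG20 1.61-fold higher (1.28 to 2.03). All except SNHG1 fell under 1.5-fold in at least 1 other setting, with lowest log2 ratios of 0.51 for SNHG4, 0.49 for SNHG6, 0.17 for SNHG17 and 0.55 for SNHG20. Just outside the line lay SNHG26, at a ratio of 1.40 from 15 and 12 UMIs, and SNHG25, at a ratio of 1.38.

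SNHG29, DANCR, SNHG7, SNHG14 and SNHG15 differed by less than 1.5-fold between the day 15 libraries. SNHG29, host of SNORD49A, SNORD49B and SNORD65, had 2685 CPM with CHIR and 2475 CPM with DMSO, a ratio of 1.09 (1.07 to 1.10), against 758 CPM at day 11. DANCR, which hosts SNORA26 and was named for holding progenitor cells undifferentiated, had 344 CPM with CHIR, 399 CPM with DMSO and 287 CPM at day 11. SNHG7, host of the SNORA17 pair, had 258, 222 and 198 CPM, and SNHG15, host of SNORA9, had 75.1, 69.3 and 65.0 CPM. SNHG14, the long imprinted RNA of the Prader-Willi locus that carries 83 annotated box C/D snoRNAs, had 532 CPM with CHIR, 402 CPM with DMSO and 648 CPM at day 11.

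SNHG18, SNHG9 and SNHG10 went the other way. SNHG18, host of SNORD123, had 48.3 CPM with CHIR, 143 CPM with DMSO and 79.4 CPM at day 11, so it was 2.96-fold lower (2.75 to 3.20) with CHIR than with DMSO. SNHG9, host of SNORA78, was 2.03-fold lower (1.77 to 2.33), at 16.4 CPM with CHIR, 33.3 CPM with DMSO and 28.1 CPM at day 11, but had a log2 ratio of 0.035 in the cycling clusters. SNHG10 was 1.55-fold lower (1.29 to 1.88), at 9.59 CPM with CHIR and 14.9 CPM with DMSO, and its log2 ratio lay between −0.86 and −0.46 over the settings tried. SNHG11, SNHG12, SNHG21 and SNHG30 lay between ratios of 0.792 and 1.32. SNHG22 and SNHG31 had 7 UMIs each with CHIR and 10 each with DMSO. SNHG27 had 0 UMIs with CHIR and 1 with DMSO. These 3 were below the minimum and have no ratio.

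**Figure D1:**
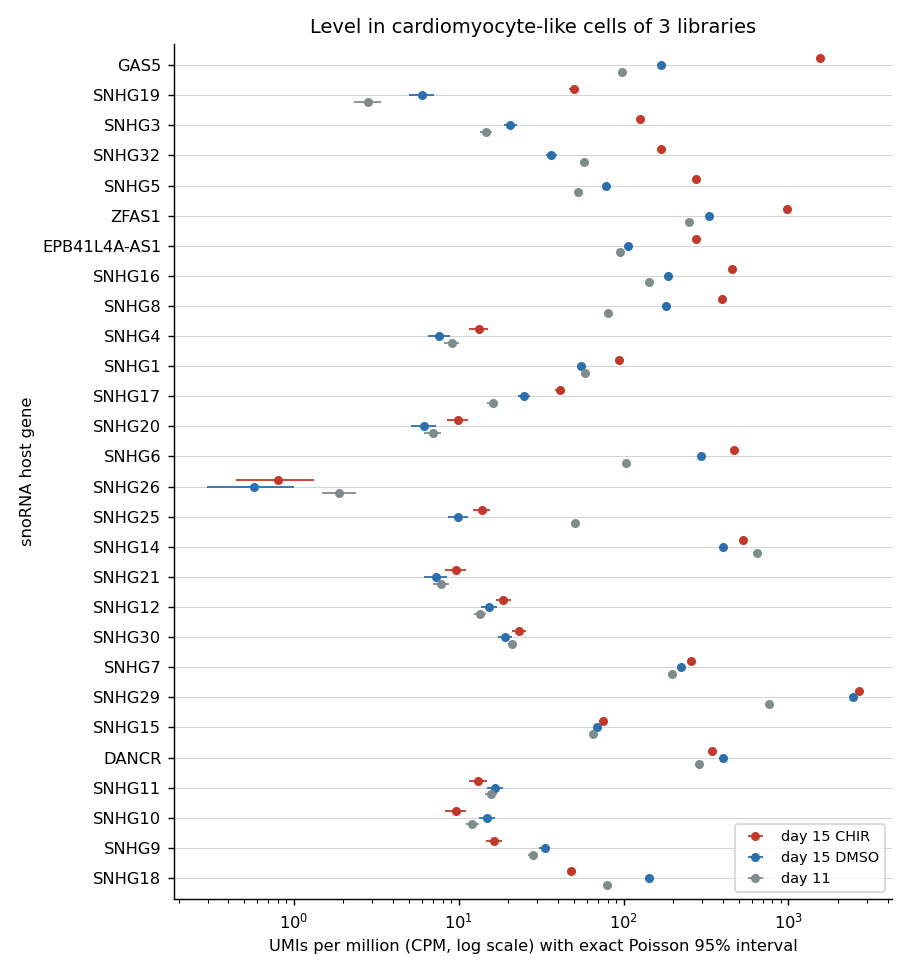
Level of the 28 measured host genes in cardiomyocyte-like cells, in CPM on a log axis, for day 15 CHIR (red), day 15 DMSO (blue) and day 11 (grey), 1 library each, with exact Poisson intervals. Genes are ordered by the CHIR over DMSO ratio, and GAS5 at the top stands at 1547 CPM with CHIR, 169 CPM with DMSO and 98.0 CPM at day 11.

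Other cell types of the same libraries were set beside the cardiomyocyte-like cells. In mesenchymal-like cells 15 of 29 measured members were at least 1.5-fold higher with CHIR (31.0% of all genes) and 3 lower (26.2% of all genes), with a median log2 ratio of 0.60 against 0.09 for all genes. This class too was made of different clusters, clusters 1, 3 and 6 with CHIR and clusters 13 and 14 with DMSO. GAS5 stood at 1170 CPM with CHIR and 101 CPM with DMSO there, a ratio of 11.6 (11.1 to 12.0). SNHG18 was again lower, at 98.6 CPM with CHIR and 275 CPM with DMSO. SNHG1 differed more in mesenchymal-like than in cardiomyocyte-like cells, at 273 CPM with CHIR and 58.9 CPM with DMSO, a ratio of 4.64 (4.40 to 4.89), and the difference between the classes was not tested. SNHG32 had 164 CPM with CHIR and 19.2 CPM with DMSO in the mesenchymal-like cells, a ratio of 8.52 (7.79 to 9.34).

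A cluster led by epithelial genes, which was left unnamed, held 60 CHIR and 56 DMSO cells. In it the ribosomal protein share was 29.6% with CHIR and 29.8% with DMSO. GAS5 had 963 CPM with CHIR and 81.5 CPM with DMSO in these cells, a ratio of 11.8 (9.68 to 14.6). Of 25 members measured, 13 were higher (40.0% of all genes) and 2 lower (13.7% of all genes). The cycling cardiomyocyte-like cells, 144 with CHIR and 165 with DMSO, had 16 of 27 members higher (22.8% of all genes) and 2 lower (17.2% of all genes), and the non-cycling ones 14 of 28 higher (19.8% of all genes) and 3 lower (26.1% of all genes). Endoderm-like and endothelial-like cells numbered under 50 in at least 1 library. There GAS5 had a log2 ratio of 3.29 in the endoderm-like cells, where 14 of 22 measured members were higher with CHIR (25.2% of all genes) and 2 lower (25.5% of all genes). In the endothelial-like cells it was 2.75, with 13 of 20 higher (28.2% of all genes) and 3 lower (23.6% of all genes). These smaller classes were added after the data were seen.

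**Figure D2:**
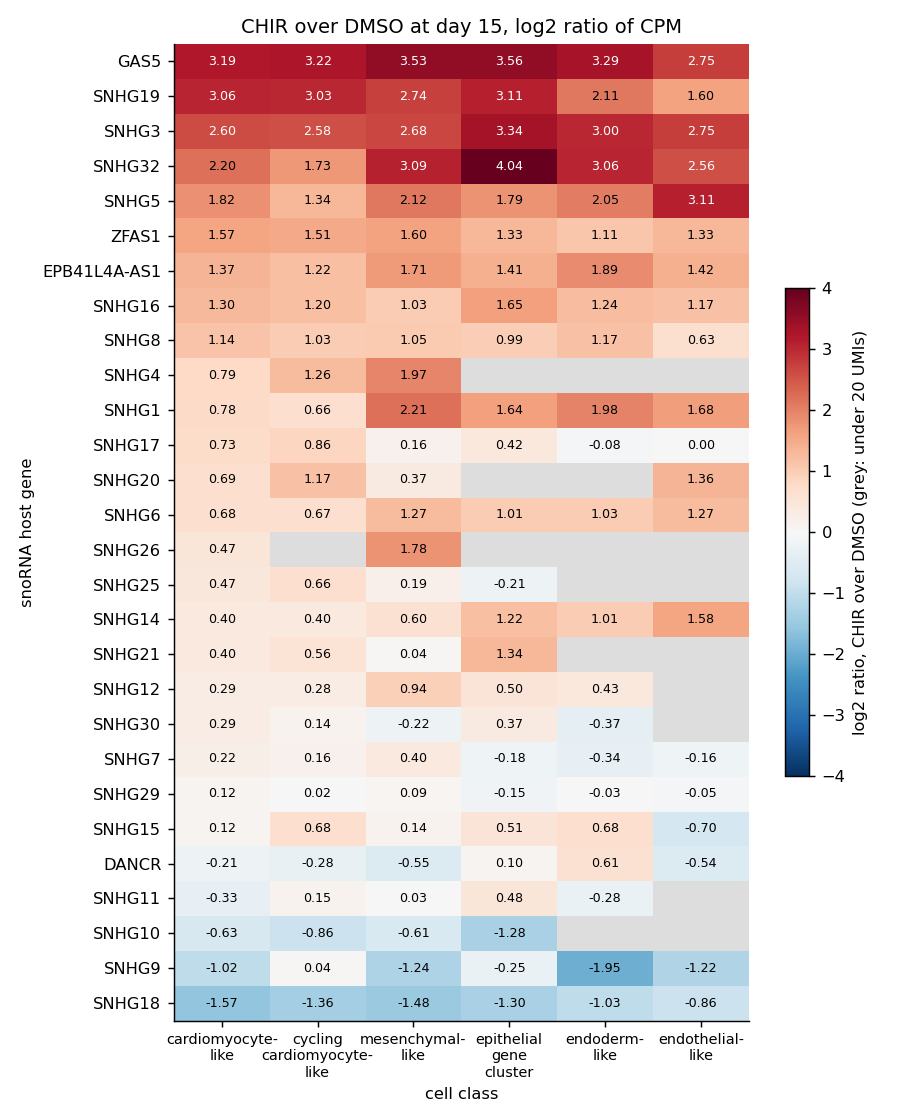
Log2 ratio of CPM, CHIR over DMSO, for the 28 host genes measured in cardiomyocyte-like cells (rows) in 6 cell classes (columns), with red for higher and blue for lower with CHIR and grey for under 20 UMIs. GAS5 lies between 2.75 and 3.56 in all 6 columns, and SNHG29 between −0.15 and 0.12.

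Clusters of at least 50 cells were compared next, 7 of them with CHIR and 6 with DMSO. For 12 members every CHIR cluster was above every DMSO cluster (5.66% of all genes), namely EPB41L4A-AS1, GAS5, SNHG1, SNHG3, SNHG5, SNHG6, SNHG8, SNHG16, SNHG19, SNHG26, SNHG32 and ZFAS1. SNHG26 lay near the floor in this, at 0.790 to 2.64 CPM with CHIR and 0 to 0.756 CPM with DMSO. For SNHG10 every CHIR cluster was below (2.83% of all genes). GAS5 ranged over the clusters from 948 to 1601 CPM (median 1184) with CHIR and from 81.5 to 175 CPM (median 102) with DMSO. SNHG19 ranged from 29.9 to 51.7 CPM with CHIR and from 4.66 to 6.27 CPM with DMSO, and SNHG3 from 82.6 to 137 CPM with CHIR and from 12.8 to 21.5 CPM with DMSO. SNHG18 overlapped, with 31.6 to 150 CPM with CHIR and 81.1 to 300 CPM with DMSO. Clusters of a library are not replicates of a condition.

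The difference in GAS5 was spread over the cells rather than carried by a few. With every cell thinned to 5000 UMIs, the median cardiomyocyte-like cell held 7 GAS5 UMIs with CHIR (10th to 90th percentile 3 to 12, 1284 cells), 1 with DMSO (0 to 2, 1585 cells) and 0 at day 11 (0 to 2, 3350 cells). The numbers of shallower cells left out were 20, 66 and 82 in that order. The 10th percentile with CHIR thus lay above the 90th with DMSO. SNHG29 in the same thinned cells had medians of 13 UMIs with CHIR, 12 with DMSO and 3 at day 11. Free RNA in the droplets was not tested for its part.

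**Figure D3:**
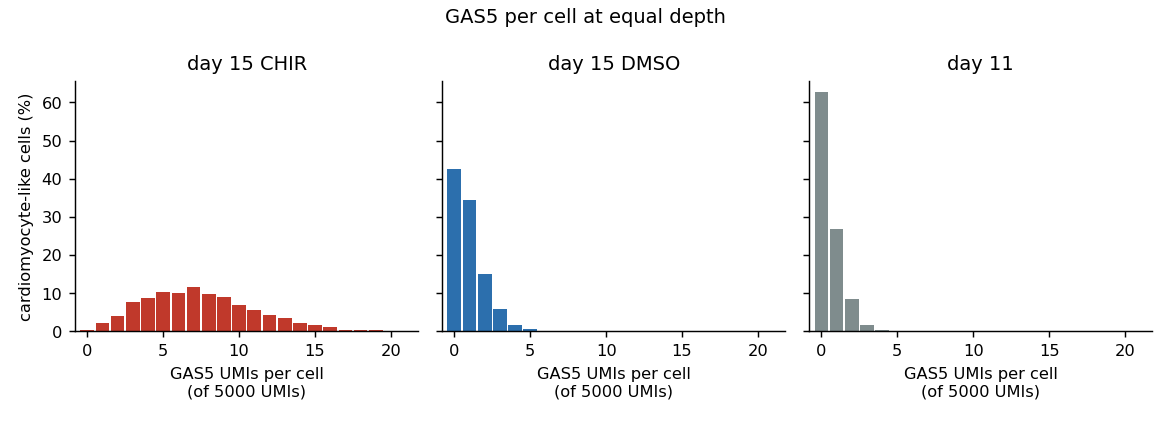
Share of cardiomyocyte-like cells (in percent) by their number of GAS5 UMIs after each cell was thinned to 5000 UMIs, for day 15 CHIR, day 15 DMSO and day 11. The CHIR cells centre on a median of 7 UMIs, against 1 with DMSO and 0 at day 11.

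The summed level of the host RNAs moved with the ribosomal protein share of a cell, and single members differed in this. The cardiomyocyte-like cells of at least 5000 UMIs were set into 4 bins of equal size by that share in each library. The members together went up over the bins from 7074 to 10284 CPM with CHIR, from 3972 to 6493 CPM with DMSO and from 2695 to 3722 CPM at day 11. GAS5 went up from 1031 to 1928 CPM with CHIR and from 114 to 224 CPM with DMSO, and SNHG29 from 1892 to 3209 CPM with CHIR and from 1512 to 3336 CPM with DMSO. SNHG3 moved little, from 115 to 135 CPM with CHIR, and stood at 19.2 CPM in the lowest and 20.3 CPM in the highest DMSO bin. GAS5 in the lowest CHIR bin, with a median share of 23.1%, stood at 1031 CPM, against 179 CPM in the DMSO bin with a median share of 23.4% and 224 CPM in the highest DMSO bin, with a median share of 27.2%. Among cells whose share lay between 18.7% and 29.1% in both libraries, 509 with CHIR and 1084 with DMSO, 13 members were at least 1.5-fold higher (30.1% of all genes) and 3 lower (18.8% of all genes), with a median log2 ratio of 0.51 against 0.19 for all genes. Per cell, the Spearman correlation of thinned GAS5 with the share was 0.47 over 1284 CHIR cells and 0.17 over 1585 DMSO cells, and that of SNHG29 was 0.54 and 0.67. SNHG14 ran the other way, at −0.20 with CHIR, −0.22 with DMSO and −0.31 at day 11. Of the 30 members with a value, 9 lay above 0.1, 1 below −0.1 and 20 between with CHIR. With DMSO the counts were 10, 1 and 19. Nearly all members between had means under 1 UMI per thinned cell, where a correlation near 0 says little. The exception was SNHG7 with CHIR, with a mean of 1.25 UMIs and a correlation of 0.07. Both measures come from the same library and depth, so these are given as a description.

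**Figure D4:**
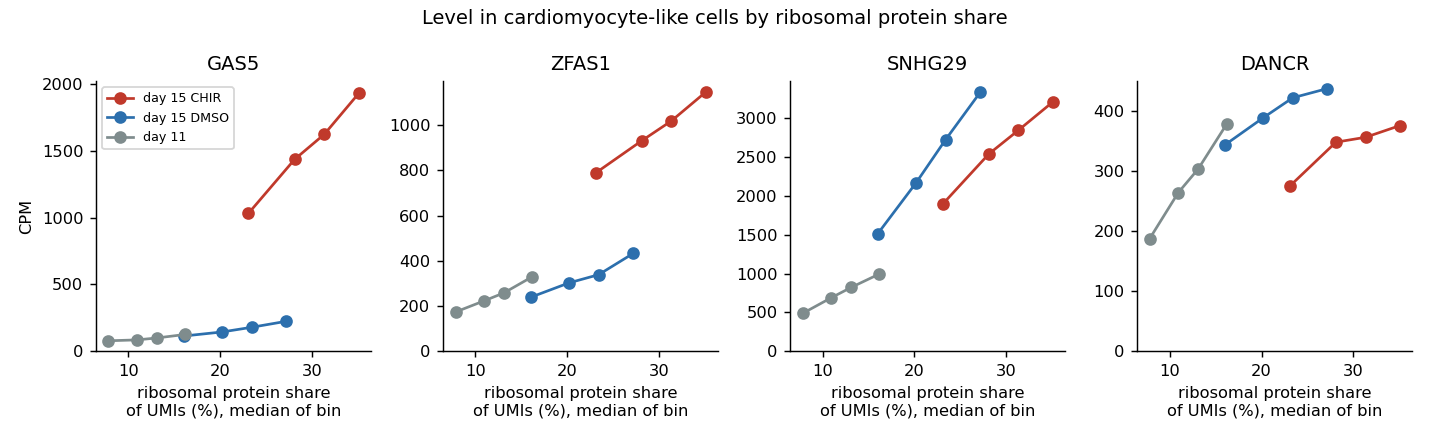
Level in cardiomyocyte-like cells (CPM) of GAS5, ZFAS1, SNHG29 and DANCR against the median ribosomal protein share of UMIs (percent) in each bin of cells, for day 15 CHIR (red), day 15 DMSO (blue) and day 11 (grey). At like shares GAS5 and ZFAS1 lie higher with CHIR than with DMSO (GAS5 at 1031 CPM in the CHIR bin of 23.1% and 179 CPM in the DMSO bin of 23.4%), while SNHG29 and DANCR do not.

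Between day 11 and day 15 the pattern was another. In cardiomyocyte-like cells 7 of 30 measured members were at least 1.5-fold higher with DMSO at day 15 than at day 11 (8.72% of all genes), and 6 were lower (52.2% of all genes). The first count was 19 with TMM factors, under which 25.2% of all genes were higher, and 12 with totals that left out mitochondrial and ribosomal protein genes (13.6% of all genes). The second count was 4 with TMM factors (33.2% of all genes) and 4 with those totals (44.2% of all genes). The median log2 ratio was 0.17 for the members and −0.65 for all 17841 genes, which differ between these libraries in general. SNHG29 was 3.26-fold higher with DMSO than at day 11 (3.22 to 3.31), SNHG6 2.86-fold (2.75 to 2.97), SNHG8 2.26-fold (2.15 to 2.37), SNHG18 1.80-fold (1.71 to 1.89) and GAS5 1.73-fold (1.65 to 1.81).

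SNHG25, host of SNORD104, was 5.10-fold lower with DMSO than at day 11 (4.42 to 5.91), at 9.97 CPM with DMSO and 50.9 CPM at day 11. SNHG22 had 10 UMIs with DMSO and 292 at day 11, and SNHG31 had 10 and 178. SNHG14 was 1.61-fold lower with DMSO (1.57 to 1.65), in a comparison where 52.2% of all genes were at least 1.5-fold lower. With CHIR against day 11, 13 of 30 members were higher (9.48% of all genes) and 6 lower (56.0% of all genes), and these comparisons share the day 11 library. With TMM factors 21 were higher (24.6% of all genes) and 3 lower (36.9% of all genes), and 20 were higher with totals that left out mitochondrial and ribosomal protein genes (17.5% of all genes). SNHG25, SNHG22 and SNHG31 were low in both day 15 libraries, at 13.8, 0.373 and 0.373 CPM with CHIR and 9.97, 0.477 and 0.477 CPM with DMSO, against 50.9, 7.36 and 4.49 CPM at day 11. Over all cells of the libraries, 15 of 30 members were higher with CHIR than with DMSO (25.6% of all genes) and 4 lower (26.0% of all genes). In the same all-cell sums 9 were higher with DMSO than at day 11 (8.35% of all genes), or 17 with TMM factors (5383 of 19957 genes in all), and 7 lower (54.5% of all genes). There 15 were higher with CHIR than at day 11 (10.5% of all genes) and 5 lower (55.4% of all genes).

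The members were also compared between cell types within a library. In the CHIR library 6 of 29 measured members were at least 1.5-fold higher in cardiomyocyte-like than in mesenchymal-like cells (25.8% of all genes) and 6 lower (24.8% of all genes), and in the DMSO library 7 of 29 were higher (34.8% of all genes) and 4 lower (20.3% of all genes). These counts lie near or under the shares of all genes, so they are no result about the members as a set, and only single members are described. SNHG14 had 532 CPM in cardiomyocyte-like and 140 CPM in mesenchymal-like cells with CHIR, and 402 and 92.7 CPM with DMSO, and in the mesenchymal-like cells it was also 1.51-fold higher with CHIR than with DMSO (1.44 to 1.58). SNHG4, host of SNORA74A, had 13.2 and 3.30 CPM with CHIR, and 7.64 and 0.828 CPM with DMSO, so it differed by library as well, by 1.73-fold and 3.98-fold (2.54 to 6.53) in these classes. SNHG7 ran the other way, with 258 CPM in cardiomyocyte-like and 580 CPM in mesenchymal-like cells with CHIR, and 222 and 438 CPM with DMSO. DANCR was higher in cardiomyocyte-like cells in both libraries, by 1.99-fold with CHIR and 1.58-fold with DMSO.

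Hosts of both kinds of snoRNA were among the higher members. In RefSeq (GRCh38.p14), 26 of the 31 members had an annotated snoRNA with a SNORD or SNORA symbol within their bounds. Throughout, small RNAs with other symbols were not counted and strand was not compared, so the remaining members may host RNAs of other names. Of 13 members with box C/D snoRNAs alone, 7 were higher and 1 lower in cardiomyocyte-like cells with CHIR than with DMSO, with a median log2 ratio of 0.68, where 19.4% of all genes were higher and 25.8% lower. Of 10 measured members with box H/ACA snoRNAs alone, 5 were higher and 1 lower (median 0.47). GAS5 and SNHG12 carry both kinds. The 15 measured members with a pyrimidine run near the 1 start examined, which need not be a TOP, had a median log2 ratio of 0.73. The 9 without one there, GAS5 among them, had 0.69, and tracts at other starts were not searched.

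The bounds of 13 members overlapped another listed gene, so reads there may be counted for either gene or for neither, which was not tested. The sources used here do not state whether counting used strand. Within the bounds of GAS5, ZBTB37 had 16.7 CPM with CHIR and 14.3 CPM with DMSO, and GAS5-AS1 had 3 UMIs in each. RCC1, which overlaps SNHG3 on the same strand, had 9.01 CPM with CHIR and 7.40 CPM with DMSO. MATR3, which overlaps SNHG4 on the same strand, had 16 UMIs with CHIR and 16 with DMSO. SEC14L1, which overlaps SNHG20 on the same strand, had 19.9 CPM with CHIR and 19.4 CPM with DMSO. LRRC75A, which overlaps SNHG29, had 146 CPM with CHIR and 67.7 CPM with DMSO. SNRPN, which overlaps SNHG14, had 267 CPM with CHIR and 402 CPM with DMSO. UBE3A, which overlaps SNHG14 on the other strand, had 96.1 CPM with CHIR and 54.0 CPM with DMSO. TRNAU1AP at SNHG12 and FSD2 at SNHG21 were lower with CHIR, at 34.0 against 57.1 CPM and 17.4 against 36.6 CPM.

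Of the box C/D core proteins, which bind the host-derived snoRNAs, 2 of 4 were at least 1.5-fold higher with CHIR than with DMSO in cardiomyocyte-like cells and 0 lower, with a median log2 ratio of 0.80. NOP56 had 125 CPM with CHIR and 53.6 CPM with DMSO, and FBL, the methyltransferase, had 138 CPM with CHIR and 66.3 CPM with DMSO. Of the 4 box H/ACA core proteins, 0 were higher and 0 lower (median 0.14). Of all genes, 19.4% were higher and 25.8% lower, and lists of 4 genes say little against those shares. Of 10 snoRNP assembly factors, 5 were higher and 1 lower. NOLC1 had 53.8 CPM with CHIR and 23.1 CPM with DMSO, and PIH1D1 had 47.9 CPM with CHIR and 78.2 CPM with DMSO. Of 14 genes of ribosome biogenesis and MYC, 10 were higher and 0 lower (median 1.03), and POLR1A, the largest subunit of RNA polymerase I, was 3.30-fold higher (2.68 to 4.09). MYC itself had 10 UMIs with CHIR and 13 with DMSO, a ratio of 0.859 (0.337 to 2.12), and MYCN had 24.1 CPM with CHIR and 21.6 CPM with DMSO.

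Protein-coding hosts of snoRNAs were counted on the same scale, on which 19.4% of all genes were higher and 25.8% lower. Of 16 chosen ones outside the ribosomal proteins, 9 were higher and 0 lower with CHIR than with DMSO, with a median log2 ratio of 0.64. EEF2, an elongation factor, had 1247 CPM with CHIR and 471 CPM with DMSO, and HSPA9, a mitochondrial chaperone, had 184 CPM with CHIR and 72.6 CPM with DMSO. Of all protein-coding genes with an annotated snoRNA inside, again outside the ribosomal proteins, 59 of 180 measured were higher and 18 lower. Their median was 0.34, against 0.57 for the members. Of 17 translation genes of the TOP class, 10 were higher and 0 lower (median 0.67). This list shares EEF1B2, EEF2, RACK1 and TPT1 with the 16 chosen hosts, so the counts are not separate. Other lists also share genes, among them NOLC1, NCL, NPM1, NOP56 and DKC1. PABPC1, the poly(A) binding protein, was 3.26-fold higher (3.14 to 3.39).

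Of 77 ribosomal protein genes, 32 were higher and 2 lower with CHIR than with DMSO in cardiomyocyte-like cells, with a median log2 ratio of 0.43. Of all genes, 19.4% were higher and 25.8% lower. The ribosomal protein genes spread widely. RPL27A, host of 2 snoRNAs, had 2454 CPM with CHIR, 345 CPM with DMSO and 283 CPM at day 11, and RPL13A, host of 4 snoRNAs, had 4232, 608 and 707 CPM. RPS26 had 646 CPM with CHIR and 1066 CPM with DMSO, and RPS28 had 3400 CPM with CHIR and 5171 CPM with DMSO. The 29 ribosomal protein genes with an annotated snoRNA inside had 15 higher and 0 lower, with a median of 0.59 (range −0.40 to 2.83). The 48 without one had 17 higher and 2 lower, with a median of 0.32 (range −0.72 to 2.14). In mesenchymal-like cells those medians were 0.40 and 0.34. The ratio of 7.12 for RPL27A (6.95 to 7.30) was of the size seen in GAS5 and SNHG19, and whether library making or read mapping took part was not tested.

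Many host RNAs are known substrates of nonsense-mediated decay, and genes of this decay were read beside the members, whose own decay was not measured. Of 16 decay factors 7 were higher and 1 lower with CHIR than with DMSO, with a median log2 ratio of 0.48. In these cardiomyocyte-like cells 19.4% of all genes were higher and 25.8% lower. ETF1, a release factor, had 50.9 CPM with CHIR and 27.2 CPM with DMSO, SMG5 had 14.1 and 8.49 CPM, and UPF2 had 24.6 CPM with CHIR and 42.8 CPM with DMSO. Of 12 decay-sensitive transcripts 4 were higher and 3 lower (median −0.15), which was 0.02 when totals left out mitochondrial and ribosomal protein genes. SRSF3 had 229 CPM with CHIR and 77.1 CPM with DMSO, and ATF3 had 73.5 and 24.8 CPM. GADD45B had 30.5 CPM with CHIR and 121 CPM with DMSO, and GABARAPL1 had 17.2 and 31.7 CPM. The integrated stress response list, which shares ATF3, ATF4 and DDIT3 with the decay-sensitive one, had 6 of 11 genes higher and 1 lower. Its median log2 ratio was 0.79 in cardiomyocyte-like but −0.40 in mesenchymal-like cells. CHAC1 had 24.4 CPM with CHIR and 1.91 CPM with DMSO, SESN2 had 27.8 and 8.11 CPM, and VLDLR had 13.0 and 26.7 CPM.

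**Figure D5:**
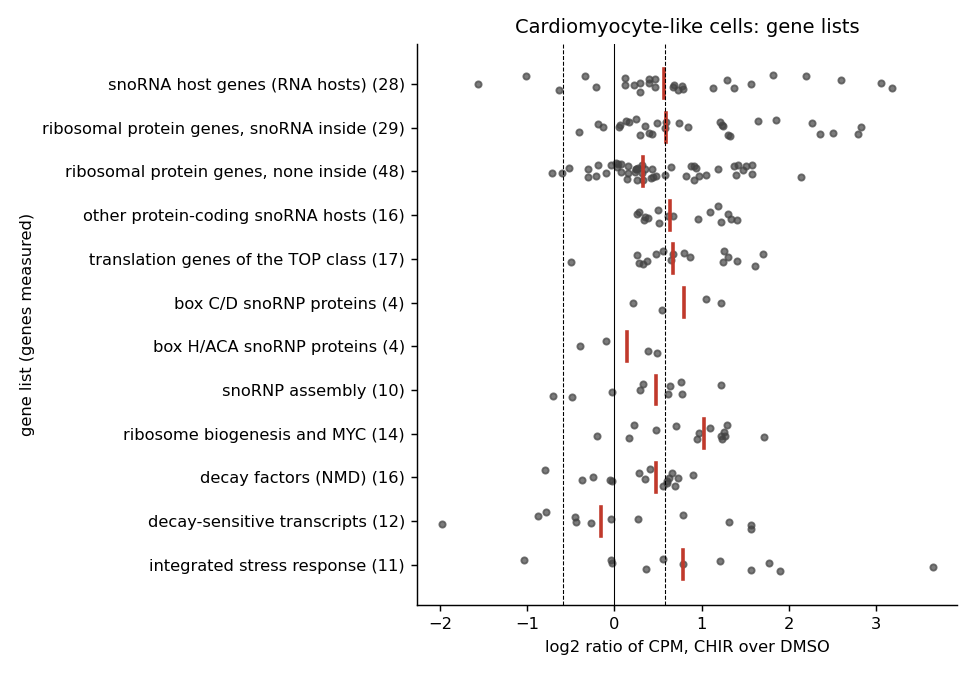
Log2 ratio of CPM, CHIR over DMSO, in cardiomyocyte-like cells for the snoRNA host genes and 11 other gene lists, 1 point per measured gene, with the median as a red bar and 1.5-fold marked by dashed lines. The median is 0.57 for the 28 host genes, 0.59 for ribosomal protein genes with a snoRNA inside and 0.32 for those without one. Some genes are in more than 1 list.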

How the data were processed

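For each single-cell library the authors deposited raw UMI counts, whole numbers, for every gene in every cell. The submitters' processing notes name Cell Ranger 6.1.1 with GRCh38 for these libraries, and for day 11 also Seurat 4.3.0 under R 4.1.0. Per the labels' protocols live cells were sorted by DAPI exclusion and 3′ libraries were made. The sources used here do not say if intron reads were counted. The H3K27ac peaks (hg19) and input were not used here, since no annotation of that build was at hand.

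Deposited cells held 1802 to 5999 genes. A minimum of 500 genes and 1000 UMIs and at most 25% mitochondrial counts removed 0 cells. Scrublet in scanpy 1.11.5 called 220 doublets with DMSO, which were removed, but 1 at day 11 and 0 with CHIR. Calls this few were not relied on, and doublets may remain in both libraries. The libraries were clustered together (2000 variable genes, 30 principal components, 15 neighbours, Leiden resolution 0.6, seed 1), with the members, all listed genes and ribosomal protein genes kept out of the variable genes. Clusters were named from fixed marker lists. That clusters led by epithelial genes stay unnamed was decided after seeing the data.

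UMIs were summed per class and library and scaled to CPM. Ratios carry exact conditional binomial (Clopper-Pearson) 95% intervals, and levels exact Poisson ones. Log2 ratios add 0.5 UMIs. A gene was measured from 20 UMIs over both libraries and called at 1.5-fold. With 1 library per group no test was made. The ratio step was checked on simulated counts. Ratios were recomputed with TMM factors from edgeR 4.0.16, which was used for nothing else. The snoRNA content, positions and start windows are from RefSeq GRCh38.p14. Named are GAS5, SNHG19 and SNHG3, members at or above 50 CPM in cardiomyocyte-like cells of any library, members at least 1.5-fold different with at least 200 UMIs, and of each other list at most 2 higher and 2 lower by size of ratio. Members outside this rule are given where they complete the account. The members and lists were chosen with earlier results of these data known.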

Additional observations from a re-analysis of the deposited data

How the results depend on the processing

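Of the 28 members measured in cardiomyocyte-like cells, 11 stayed at least 1.5-fold different in the same direction between CHIR and DMSO under each of 13 settings. The settings included the cells outside the cardiomyocyte-like class. The 11 were EPB41L4A-AS1, GAS5, SNHG1, SNHG3, SNHG5, SNHG8, SNHG16, SNHG18, SNHG19, SNHG32 and ZFAS1. GAS5 had log2 ratios of 2.76 to 3.53. SNHG9, lower otherwise, reversed to 0.035 in the cycling clusters. The number of members higher was 9 at a fold of 2 (8.14% of all genes) and 13 to 16 elsewhere (18.1% to 32.4% of all genes), and the number lower was 5 in cells outside the class (24.2% of all genes) and 2 to 4 elsewhere (14.6% to 30.2% of all genes). The median log2 ratio of the members, 0.57 as reported, was 0.75 with totals that left out mitochondrial and ribosomal protein genes (which moved the median of all genes from −0.03 to 0.14), 0.63 with TMM factors, 0.68 with a minimum of 100 UMIs and 0.47 with a minimum of 1 UMI. It was 0.63 at Leiden resolution 1.0 and 0.46 with doublets kept. Without the DMSO cluster of the class with the most SHOX2, which was the cycling cluster 11, it was 0.52. The median was 0.70 with members and ribosomal protein genes among the variable genes and 0.51 in the shared range of ribosomal protein share. It was 0.82 in cells outside the class and 0.67 in cycling clusters, settings that were chosen after seeing the data. Over all cells, the members lower with CHIR than with DMSO numbered 2 with totals without mitochondrial and ribosomal protein genes (20.7% of all genes) and 2 at a fold of 2 (15.8% of all genes). The members higher with DMSO than at day 11 in cardiomyocyte-like cells numbered 12 with those totals (13.6% of all genes), 19 with TMM factors (25.2%) and 4 at a fold of 2 (3.72%), and over all cells 17 with TMM factors (5383 of 19957 genes in all) and 4 at a fold of 2 (3.57%). Against day 11, CHIR cardiomyocyte-like cells had 20 members higher with those totals (17.5%) and 21 with TMM factors (24.6%), and 3 lower with TMM factors (36.9%), and over all cells 3 lower with TMM factors (34.7%). The cause was not tested. Leiden resolution 0.3 put 0 CHIR cells in the class and gave no value. No paired analysis was possible because each single-cell group has 1 library, so the groups compared share fewer than 2 replicate numbers.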
